A study of Mus musculus with 16 samples.

Results

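Ptprf and 9 other protein tyrosine phosphatase genes (Ptprs, Ptprc, Ptprj, Ptpra, Ptpre, Ptprk, Ptpn6, Ptpn11 and Ptpn1) were followed in haematopoietic stem cells (HSCs) of mice with and without Gfra2. These 10 genes, of 46078 in the deposited count table, were taken by symbol. Ptprf was chosen by its counts: it had reads in central HSCs labelled Gfra2-/- and nearly none in endosteal ones, so its levels are described here without a test, and the other 9 genes accompany it by function.

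RNA-Seq by Smart-seq2, which primes on poly(A) tails and amplifies the cDNA by PCR, was made from pools of 30 sorted LSK CD48-CD150+ cells of C57/Bl6 mice that received no treatment. The cells came from the endosteal fraction (bone) or the central fraction (marrow) of tibia, femur and humeri of wild-type (WT) mice or of mice lacking Gfra2 in all tissues. Gfra2 encodes GFRα2, the neurturin co-receptor that cholinergic neurons need to survive, and the comparison asks how HSCs at the bone surface and in the centre of the marrow differ with and without this receptor. The 15 libraries used here were 4 WT endosteal, 4 WT central, 4 Gfra2-/- endosteal and 3 Gfra2-/- central, lettered A to D in the order of the table, where the letter pairs no libraries across groups. The labels describe 4 samples in each group, so 1 labelled sample of the Gfra2-/- central group, the group in which Ptprf was read, was not analysed here. How many mice gave each pool, and their age, are not given in the sources used here, so the p-values measure the spread between these pools.

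Protein tyrosine phosphatases remove phosphate from tyrosine residues and so reverse the work of tyrosine kinases. Receptor-type members span the membrane: LAR (encoded by Ptprf) and its close relative PTPσ (Ptprs) carry adhesion-type extracellular domains that bind cell-surface and matrix ligands, and CD45 (Ptprc) is the phosphatase found on all nucleated blood cells, where it controls SRC-family kinases. In the cytosol, SHP-1 (Ptpn6) dampens signals from cytokine and inhibitory receptors, SHP-2 (Ptpn11) carries signals from receptors to the RAS pathway, and PTP1B (Ptpn1) acts on the insulin receptor and JAK kinases. All share one catalytic loop, in which a cysteine takes the phosphate from the substrate and an arginine binds it.

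The coding sequence of this loop shows how close Ptprf lies to its nearest relative in the stretch that the family shares. It was read from GENCODE M21 transcripts on GRCm38 with the longest coding sequence of each gene. Capitals mark the codons from the cysteine to the arginine of the motif. It was found by searching the translated frame for histidine, cysteine, any 5 residues, arginine and serine or threonine. A match does not show that its domain is active. All 6 windows lie on the minus strand and cross an exon boundary.
Ptprf, first match, chr4:118212219-118212346: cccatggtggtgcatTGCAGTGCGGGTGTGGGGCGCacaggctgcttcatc
Ptprf, second match, chr4:118210474-118210636: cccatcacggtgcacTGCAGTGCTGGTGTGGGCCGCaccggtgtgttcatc
Ptprs, first match, chr17:56417481-56417610: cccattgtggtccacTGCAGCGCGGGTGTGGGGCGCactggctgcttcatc
Ptprs, second match, chr17:56413834-56413970: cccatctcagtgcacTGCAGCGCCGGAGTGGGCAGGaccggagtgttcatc
Ptpn6, chr6:124722048-124724976: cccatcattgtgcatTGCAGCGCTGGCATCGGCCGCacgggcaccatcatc
Ptpn11, chr5:121143599-121144549: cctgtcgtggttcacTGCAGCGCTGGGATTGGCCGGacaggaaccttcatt
The first matches of Ptprf and Ptprs differed at 5 of 51 bases, against 13 for Ptprf and Ptpn6 and 16 for Ptprf and Ptpn11. In each LAR-type gene the motif was found in both tandem phosphatase domains, and in Ptpn6 and Ptpn11 once. Over whole transcripts, 0 of 9403 windows of 50 bases (the read length) from Ptprf, and 0 of 15493 from Ptprs, occurred in a transcript of any other gene on either strand, so an exact read of one could not be counted for the other. The shares in the other members ran from 0.0176% (Ptpn1) to 9.65% (Ptprj, shared with Gm13767, Gm13768 and Gm18953), and were 5.01% in Ptpn6, all with Gm20531.

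Libraries held 826487 to 18550008 reads on genes, with the WT central libraries lowest (826487 to 3367289). HSC markers (10 of 10 tested) summed to 1830.2 to 4070.2 CPM (read counts scaled to the TMM-normalized library total), and Cd48, which the sort excluded, lay between 0 and 17.4 CPM. Gfra2 had 0, 0, 0 and 1 reads in WT endosteal, 0, 0, 4 and 0 in WT central, 2, 47, 1 and 9 in Gfra2-/- endosteal and 0, 1 and 0 in Gfra2-/- central libraries. Gfra2 reads were thus highest in endosteal libraries B and D, which are labelled Gfra2-/-. Most WT libraries had 0, and a count per gene does not tell which part of the gene was read. Whether the labels are right cannot be told from these reads. Fold changes that involve this group are also given without both libraries where that took them past an unadjusted p of 0.05. Direction by genotype below refers to the labels.

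Ptprf (ENSMUSG00000033295, GRCm38 chromosome 4, 118208213 to 118291405, minus strand) had 521, 378 and 122 reads in the Gfra2-/- central libraries A, B and C. In WT endosteal libraries it had 0, 0, 0 and 0 reads, in WT central libraries 1, 2, 0 and 0, and in Gfra2-/- endosteal libraries 0, 1, 0 and 0. All 3 central libraries labelled Gfra2-/- thus lay far above the 12 others, 3 of which had a read at all. In CPM the levels were 34.2, 35.7 and 15.7 in the Gfra2-/- central libraries (mean 28.5 ± 11.2, SD, n = 3). They were 0.905 and 0.622 in WT central libraries A and B, and 0.0505 in Gfra2-/- endosteal library B.

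**Figure D1:**
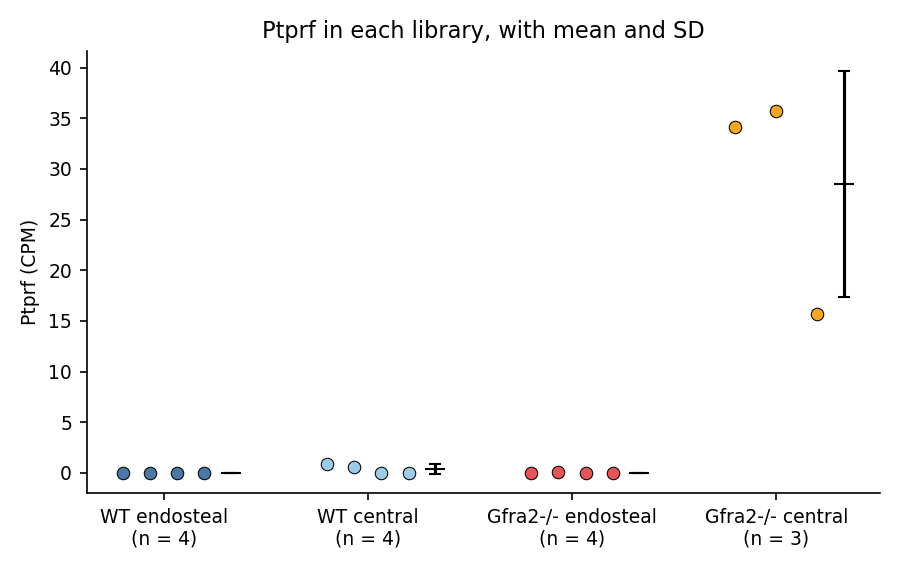
Ptprf in CPM (vertical axis) in each library of the 4 groups (points), with the group mean and SD (bars). The 3 Gfra2-/- central libraries sit between 15.7 and 35.7 CPM, and all 12 others are below 1 CPM.

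Scaled by depth alone, the mean level of the Gfra2-/- central libraries corresponded to 21.3 to 91.7 reads in the WT central libraries, 117 to 428 in the WT endosteal and 246 to 565 in the Gfra2-/- endosteal libraries. The lowest of the 3 levels corresponded to 11.7 reads in the shallowest library, WT central C, which had 0. Transcripts lost before sequencing are not part of this scaling. A count of 0 allows up to 3 reads, which was 0.200 to 0.731 CPM in WT endosteal and 1.01 and 4.02 CPM in WT central libraries D and C.

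Summed over libraries, the 1021 reads in Gfra2-/- central libraries (30.4 CPM) stood against 0 in WT endosteal ones, an at least 429-fold higher level when 3 counts over the group are taken as the floor. The WT central libraries had 3 reads in all (0.373 CPM) and the Gfra2-/- endosteal ones 1 (0.0183 CPM). Floors cover counting error only, and PCR copies are not independent molecules. In a pool of 30 cells, more cells with a transcript and more transcript per cell cannot be told apart.

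Genes highest in every library of 1 group were found for each group. Of 15416 genes with enough reads over the 4 groups, 41 (0.266%) had every Gfra2-/- central library above all 12 others. The same held for every WT endosteal library in 16 genes (0.104%), every WT central library in 138 (0.895%) and every Gfra2-/- endosteal library in 60 (0.389%). By rank order alone, 3 libraries top all others more easily than 4 do, and no share expected from rank order was set beside these. Ptprf had enough reads only through the group in which it was high. Further limits were chosen after the values were seen. They were at least 2 CPM in every library of a group and at most 3 reads in each other library. Ptprf alone of all 46078 genes met them in the Gfra2-/- central group, and no gene met them in the 3 other groups. Since Ptprf was chosen by this pattern, its place here is a description only. A group of 3 libraries also meets such limits more easily than a group of 4. At 1 CPM, 6 genes met them in the Gfra2-/- central group (Ptprf, Pacsin1, Kdelr3, Cd209a, Gm29097 and 1 gene with no symbol) and 2 in the WT central group (Itgam and Gm22009).

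The 5 named genes most like Ptprf across the 15 libraries, by Pearson's r of log2(CPM + 1) among 15340 genes, were Gm29097 (0.98), Pacsin1 (0.94), Kdelr3 (0.91), Gm42722 (0.89) and Gm43387 (0.88). Their Spearman's rho was 0.78, 0.77, 0.77, 0.57 and 0.66. Each r turns on the 3 libraries in which Ptprf was read and is a description only. Pacsin1, a membrane-bending adaptor of endocytosis, had 6.69, 1.89 and 3.34 CPM in the Gfra2-/- central libraries and 0 reads in the 12 others. Kdelr3, a receptor that returns proteins to the endoplasmic reticulum, had 13.4, 1.80 and 5.01 CPM there and 0 reads elsewhere. Among the other phosphatases r with Ptprf ran from −0.43 (Ptpn1) to 0.48 (Ptprc).

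Artn and Kdm4a, near Ptprf on chromosome 4, did not share its shape. Artn, whose product artemin is a ligand of the same family as neurturin, was read in 0 libraries. Kdm4a, a histone demethylase next to Ptprf, had 1.93 to 48.9 CPM in Gfra2-/- central and 14.2 to 56.5 in Gfra2-/- endosteal libraries. Within the gene lies only Mir7226, which had 0 reads.

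Markers of other cell types were read in some libraries, and their part in the Ptprf level was not tested. In Gfra2-/- central library A, with 34.2 CPM of Ptprf, the 6 lymphoid markers summed to 1.70 CPM, and in libraries B and C they summed to 156 and 122 CPM. The 6 stromal markers summed to 2.74 to 25.7 CPM in Gfra2-/- central libraries and 0.164 to 299 in the others. Col3a1 had 0 reads in all 15. Pdgfrb made up nearly all of the sum in Gfra2-/- central libraries (18.3, 2.74 and 25.7 CPM), where Col1a1, Lepr and Pdgfra had 0 reads. The 5 endothelial markers summed to 305 to 374 CPM against 45.2 to 499.9, with Cdh5 at 0 in all 15, although Kdr, the VEGF receptor, had 3.48, 63.9 and 33.3 CPM in Gfra2-/- central and 0 reads in Gfra2-/- endosteal libraries. In WT central libraries Kdr had 128, 3.73, 6.70 and 10.4 CPM, the highest in library A, which had 1 read of Ptprf. The 5 epithelial markers summed to 72.6 to 148 CPM against 30.8 to 200.3, with Cdh1 at 0 in all 15. The 5 nerve and Schwann cell markers summed to 133 to 186 CPM against 95.4 to 563. In Gfra2-/- central libraries most of these sums came from Krt18 (148, 61.9 and 97.2 CPM) and Mbp (113, 182 and 168 CPM). The endothelial sums there came mostly from Vwf and Emcn. Krt18, Mbp, Vwf and Emcn were read in all 15 libraries, so these sums are not levels of a cell type.

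The 5 megakaryocyte markers summed to 209 to 311 CPM in Gfra2-/- central libraries against 46.8 to 584 elsewhere, the 5 erythroid markers to 3.8 to 59.3 against 7.29 to 486, and the 5 myeloid markers to 566 to 1621.6 against 475 to 2615.9. The sum of the 10 HSC markers (3281 to 4070.2 CPM) did not overlap that of the 12 other libraries (1830.2 to 3186). Mllt3, a regulator of HSC self-renewal, was one of them, with 469, 503 and 486 CPM in Gfra2-/- central and 202 to 276 CPM in Gfra2-/- endosteal libraries. Slamf1, another of them, had 20.0, 29.7 and 49.6 CPM in Gfra2-/- central and 68.5, 66.1, 96.0 and 9.99 in Gfra2-/- endosteal libraries. Of the 10, 8 were lower and 2 higher in endosteal than in central libraries labelled Gfra2-/-. For 3 of the 10 these groups did not overlap, as for 7.34% of all genes tested.

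Ptprs, the closest relative of Ptprf among the members, was read in all 15 libraries and took no such shape. It had 77.2, 151, 178 and 124 CPM in WT endosteal and 103, 155, 57.7 and 166 CPM in WT central libraries. It had 176, 60.2, 144 and 77.9 CPM in Gfra2-/- endosteal and 115, 83.2 and 149 CPM in Gfra2-/- central libraries. All 4 groups overlapped, and their means lay between 114 ± 54.5 and 132 ± 42.9 CPM (SD, n = 4 each). The third LAR-type gene, Ptprd, did not pass 0.257 CPM in any library.

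Ptprc, which encodes CD45, was the most even member, with an SD within groups of 0.30 on the log2(CPM + 1) scale, and ran from 288 to 612 CPM. The 4 groups overlapped, and their means were 349 ± 51.1 in WT endosteal, 395 ± 75.7 in WT central, 417 ± 94.1 in Gfra2-/- endosteal (SD, n = 4 each) and 487 ± 133 CPM in Gfra2-/- central libraries (SD, n = 3). Ptpra and Ptpre, which encode the receptors PTPα and PTPε with short extracellular parts, were also read throughout. Ptpra had 285, 80.2, 80.2 and 60.4 CPM in WT endosteal, 247, 203, 40.2 and 117 in WT central, 42.5, 106, 141 and 90.2 in Gfra2-/- endosteal and 101, 180.1 and 131 in Gfra2-/- central libraries. The 4 groups overlapped, and a single library (A) was high in WT endosteal HSCs.

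Ptpre had 679, 225, 339 and 319 CPM in WT endosteal, 196, 294, 138 and 441 in WT central, 323, 323, 311 and 247 in Gfra2-/- endosteal and 230.4, 238 and 252 in Gfra2-/- central libraries. Its spread was wide among WT libraries and narrow among those labelled Gfra2-/-, and the groups overlapped. Ptprj, which encodes the receptor CD148, had 1.22, 13.3, 13.4 and 22.7 CPM in WT endosteal and 34.4, 48.4, 26.6 and 28.1 CPM in Gfra2-/- endosteal libraries. These groups did not overlap, as in 6.24% of all 12970 genes tested, and the fold change did not pass the test (edgeR log2 interval −0.40 to 3.28). In central HSCs they overlapped, with 3.62, 13.1, 37.5 and 14.5 CPM in WT and 34.0, 28.0 and 18.4 CPM in Gfra2-/- libraries.

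Ptprk, a receptor of the type that binds itself on neighbouring cells, was near the limit of detection. It had 0 reads in all 4 WT endosteal libraries, 10, 3, 1 and 0 in WT central, 96, 11, 0 and 0 in Gfra2-/- endosteal and 4, 2 and 0 in Gfra2-/- central libraries. It was read in 7 of 15 libraries, and Ptprf in 6.

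**Figure D2:**
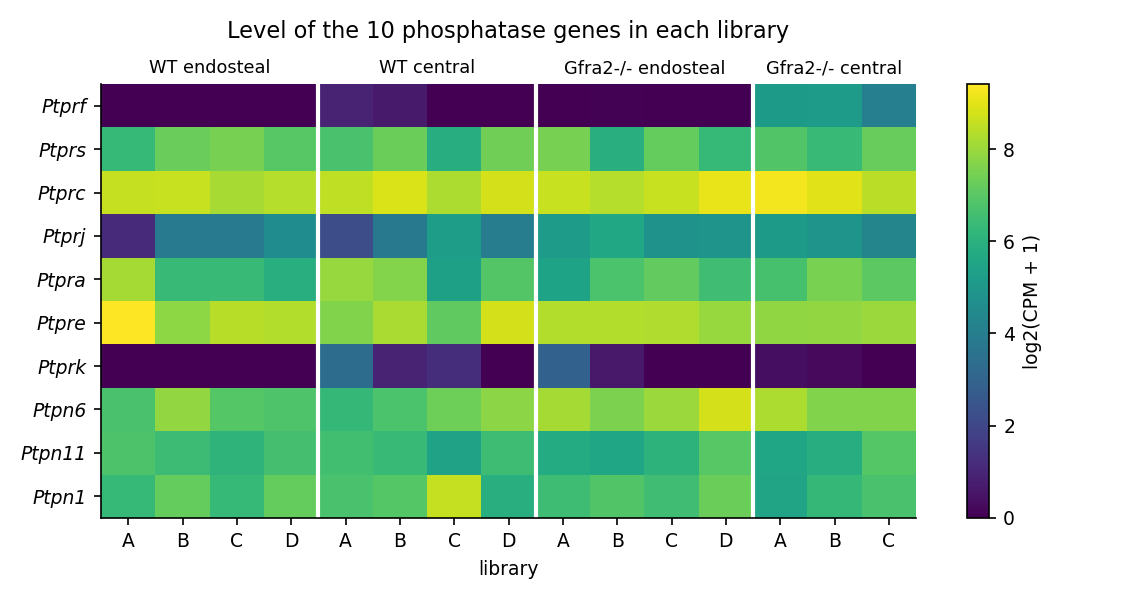
Level of the 10 phosphatase genes (rows) in each of the 15 libraries (columns, by group) as log2(CPM + 1), from dark (0) to light. Ptprf is lit in the 3 Gfra2-/- central libraries, Ptprk is near 0 in most libraries, and the 8 other genes are read in all 15.

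Of the cytosolic members, Ptpn6 (SHP-1) had 105, 238, 120.4 and 112 CPM in WT endosteal and 279.6, 188, 252 and 444 CPM in Gfra2-/- endosteal libraries. The groups overlapped through WT library B, and the level was higher in libraries labelled Gfra2-/- at an unadjusted p only (edgeR log2 fold change 1.02, SE 0.37, adjusted p = 0.737). Without Gfra2-/- endosteal libraries B and D the log2 fold change was 0.88, no longer under an unadjusted p of 0.05, and without WT endosteal library B it was 1.37. In central HSCs Ptpn6 had 76.0, 105, 159.6 and 216 CPM in WT and 301, 195 and 198 CPM in Gfra2-/- libraries, which also overlapped. The antisense gene Gm20531 overlaps Ptpn6, and since reads were counted without strand, reads from the shared stretch cannot be told apart. The same holds for antisense genes inside Ptprj, Ptpra and Ptpre.

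Ptpn11 (SHP-2) ran from 69.2 to 110.1 CPM in WT endosteal, 41.6 to 93.2 in WT central, 45.0 to 124 in Gfra2-/- endosteal and 45.4 to 119 in Gfra2-/- central libraries. Ptpn1 (PTP1B) had 77.5, 145, 77.2 and 145 CPM in WT endosteal, 103, 122, 379 and 59.0 in WT central, 87.9, 114, 89.9 and 157 in Gfra2-/- endosteal and 43.8, 75.7 and 103 in Gfra2-/- central libraries. The groups of both genes overlapped, and the highest Ptpn1 value came from the shallowest library, WT central C.

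Per length of exon, the order of the members over all 15 libraries began with Ptpn6 (71.1 ± 34.3 CPM per kb of exon, SD, n = 15), followed by Ptpre (29.8 ± 12.4), Ptprc (22.2 ± 5.07), Ptpn1 (21.4 ± 14.3), Ptpra (11.7 ± 6.71), Ptpn11 (10.5 ± 3.65), Ptprs (8.08 ± 2.81) and Ptprj (2.69 ± 1.57). Ptprf (0.635 ± 1.37) and Ptprk (0.0942 ± 0.204) closed it. Between Ptprs and Ptprj the ranges of 1 SD parted, and all other neighbours overlapped; Ptpn6 nevertheless lay above Ptpre in 14 of 15 libraries, and Ptpra above Ptpn11 in 7. In the Gfra2-/- central libraries Ptprf reached 3.73, 3.91 and 1.71 CPM per kb, beside 4.07, 3.35 and 2.20 CPM per kb of Ptprj in the same libraries. It lay below Ptprs in each of these 3 libraries (mean of Ptprs 7.72 ± 2.19 CPM per kb, SD, n = 3).

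**Figure D3:**
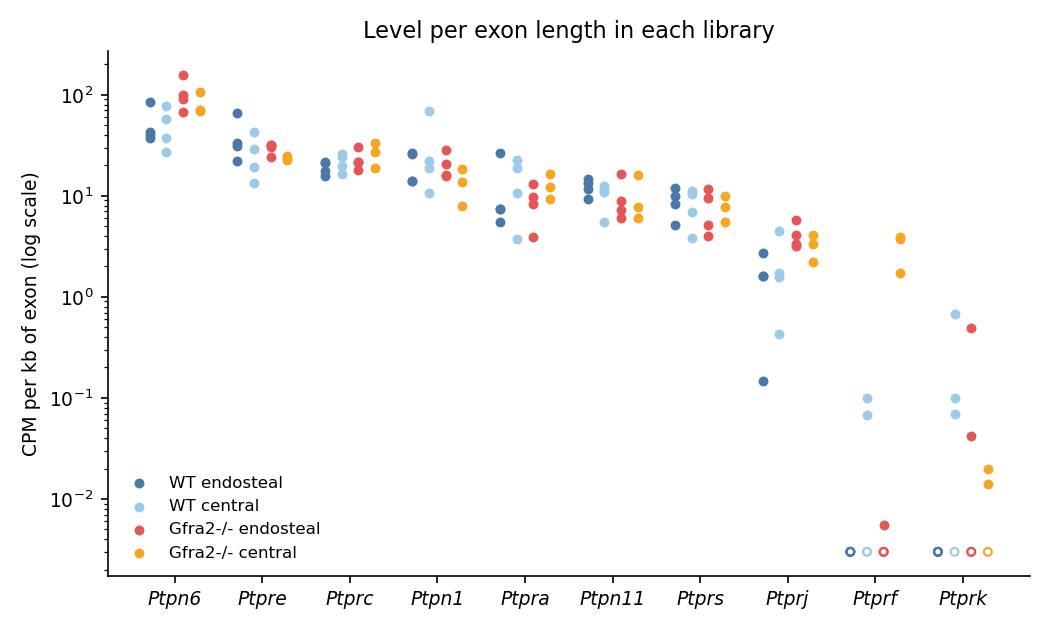
CPM per kb of exon (vertical log axis) of the 10 genes, ordered by their mean over 15 libraries, with 1 point for each library coloured by group. Open points at the foot stand for libraries with 0 reads, and only Ptprf and Ptprk have them.

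Tested with edgeR's quasi-likelihood fit at an FDR of 0.1, 0 of the 8 other members with enough reads passed between endosteal and central WT HSCs, where 0% of 11181 genes did. The same was found between endosteal and central HSCs labelled Gfra2-/- (0 of 8; 0% of 13860 genes), between genotypes in endosteal (0 of 8; 0% of 12970) and in central HSCs (0 of 8; 0.051% of 11772), and for the interaction of genotype and compartment (0 of 9; 0% of 15416). DESeq2 on the same genes also passed 0 members, against 2.14%, 1.22%, 1.03%, 3.44% and 1.18% of all genes. At an unadjusted p under 0.05 the members numbered 0, 0, 1 (Ptpn6), 0 and 1 (Ptprk), and of all genes 7.89%, 4.79%, 6.69%, 8.73% and 6.97% lay under it. The groups did not overlap for 0, 0, 1 (Ptprj) and 0 of the 8 in the 4 comparisons, and for 6.36%, 7.34%, 6.24% and 12.4% of all genes. Without a filter on low counts, DESeq2 passed 1 of the 9 (Ptprk, between endosteal and central WT HSCs), 0, 0, 0 and 0, against 4.52%, 2.75%, 3.69%, 5.33% and 1.62% of all genes.

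The size of change that these data leave room for differed by gene. Of the 32 pairs of member and comparison, 31 had a 95% interval of the log2 fold change that spanned 0, and 7 had one within −1 and 1, that is, within a 2-fold change either way. Ptprc had the narrowest in WT HSCs, from −0.79 to 0.38 (endosteal over central), and Ptprj the widest there, from −2.80 to 1.90. Ptprs between Gfra2-/- endosteal and central HSCs, the contrast in which Ptprf was chosen, had −0.02 with an interval of −1.0 to 0.97. The median log2 fold change of the 8 was −0.09, 0.15, −0.10 and −0.08 in the 4 comparisons, beside 0.03 over all genes in each.

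**Figure D4:**
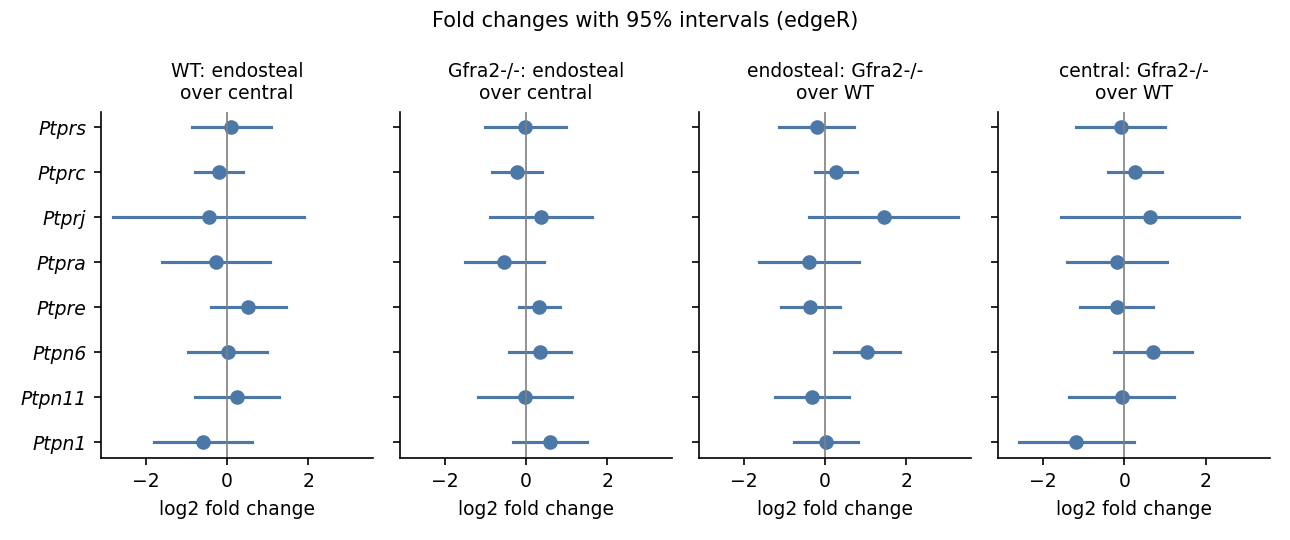
Log2 fold change (points) with 95% interval (lines) of the 8 tested members in the 4 comparisons (panels), by edgeR. All intervals but that of Ptpn6 between genotypes in endosteal HSCs cross 0.

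Ptprk, tested in the interaction only, had a log2 value of 11.09 (edgeR, SE 3.49, adjusted p = 0.539). It rests on the 10 reads of WT central library A and the 96 reads of Gfra2-/- endosteal library A: without either library, or without WT central C, the gene had too few reads to be tested. Against a group with 0 reads the size of this fitted value depends on the prior count and is no bound.

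Of the 14 other receptor-type phosphatases, 0 to 2 had enough reads for a test in each comparison, and 0 reached an unadjusted p under 0.05. Some were high in 1 or 2 libraries and at or near 0 in the others. Ptpro, a receptor best known in kidney podocytes, had 52.3 CPM in WT central library C and at most 0.905 CPM in the others, and Ptprn, of secretory granules, had 36.2 CPM in Gfra2-/- central library C and 9.65 in WT endosteal library D. Levels as high as that of Ptprf thus also occurred in single libraries for other sparse receptors. Ptprg, Ptprh, Ptprt and Ptprz1 were read in 0 libraries.

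Of the 14 other non-receptor phosphatases, 11 were tested in each comparison and 0 passed the FDR. Ptpn18, a regulator of HER2 and ABL signalling, was lower in endosteal libraries labelled Gfra2-/- at an unadjusted p only (241, 159.8, 249 and 157 CPM against 337, 319, 365 and 398 in WT, no overlap; edgeR log2 fold change −0.81, SE 0.24, adjusted p = 0.675; −0.54 without libraries B and D, no longer under an unadjusted p of 0.05). Ptpn12, which acts on adhesion proteins, had 293, 72.8, 79.5 and 72.2 CPM in WT endosteal and 26.3, 17.4, 17.4 and 72.1 CPM in WT central libraries (edgeR log2 fold change 1.92, SE 0.70, adjusted p = 0.542). Ptpn21 had 31.2, 38.3 and 52.8 CPM in Gfra2-/- central and 7.24, 3.11, 2.68 and 11.5 CPM in WT central libraries (edgeR log2 fold change 2.68, SE 0.99, adjusted p = 0.457).

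Proteins that bind or serve LAR-type receptors were mostly low. Of 24 ligands and partners, 9, 10, 9 and 9 were tested in the 4 comparisons and 0 passed the FDR. Among partners inside the cell, Ctnnb1 (β-catenin) had 65.2 to 611 CPM, Trio 9.95 to 92.0 and Ppfia1, the liprin that clusters LAR, 6.70 to 105 CPM. Of the ligands, Slitrk1, Slitrk3 and Slitrk6 were read in 0 libraries. The heparan sulphate proteoglycan Sdc4 had 49.5, 26.2, 15.2 and 95.8 CPM in Gfra2-/- endosteal and 8.04, 6.0, 1.0 and 18.3 CPM in WT endosteal libraries (edgeR log2 fold change 2.49, SE 0.94, adjusted p = 0.737), with overlap. Without Gfra2-/- endosteal libraries B and D it was 1.95, no longer under an unadjusted p of 0.05.

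Substrates and docking partners gave the same count of 0 past the FDR. Of the 11 SRC-family kinases and regulators 9 were tested in each comparison; the smallest p belonged to Lyn between endosteal and central WT HSCs (edgeR log2 fold change −1.98, SE 0.69, adjusted p = 0.508) and to Fgr between genotypes in endosteal HSCs (−5.52, SE 2.30, adjusted p = 0.737). Of the 15 docking proteins of SHP-1 and SHP-2, 7 to 10 were tested, and Lair1, an inhibitory receptor, had the 1 unadjusted p under 0.05, between endosteal and central HSCs labelled Gfra2-/- (edgeR log2 fold change 1.41, SE 0.53, adjusted p = 0.999), where it was 1.02 without endosteal libraries B and D and no longer under it. Of the 15 receptors and kinases that phosphatases act on, 12 to 14 were tested. Pdgfrb was lower in endosteal than central libraries labelled Gfra2-/- at an unadjusted p only (edgeR log2 fold change −5.18, SE 1.65, adjusted p = 0.896). DESeq2 passed Lyn and Pdgfrb in these comparisons (adjusted p = 0.086 and 0.0551), and Ppfia4 in the interaction (adjusted p = 0.000688). Ppfia4 had 0 reads in every WT endosteal library and 0, 0, 8 and 0 in WT central ones. It had 263, 211, 0 and 115 reads in Gfra2-/- endosteal and 0, 0 and 183 in Gfra2-/- central libraries. In the interaction edgeR passed 0 of 15416 genes.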

How the data were processed

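Per the labels and the study's methods, single-end reads of 50 bases were aligned to GRCm38 (mm10) with GSNAP and counted per gene with HTSeq (0.5.3p3) without regard to strand. The authors deposited unfiltered raw counts, with rows for 46078 genes, 92 ERCC spike-ins and 5 categories of uncounted reads. The labels describe 16 samples, 4 in each group; 15 columns were tied to a group by the study's sample sheet, 3 of them to Gfra2-/- central, and 1 column, tied to no group, was not used. Symbols came from GENCODE M21 (45143 genes matched; the authors used an earlier release), and sequences from its transcripts.

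Counts without spike-ins and uncounted reads were fitted with edgeR 4.0.16 (R 4.3.3; limma 3.58.1): libraries of the 2 groups compared, filterByExpr, TMM, quasi-likelihood test, Benjamini-Hochberg adjustment, FDR of 0.1. The interaction used all 15 libraries. DESeq2 1.42.0, the study's tool, was run on the same genes as an alternative. SE is the log2 fold change over the square root of F. The fits were tested on simulated data. CPM use TMM totals over 15 libraries; CPM per kb divides by the union of GENCODE exons, which lowers genes with long minor isoforms.

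Members and lists were chosen with earlier results of these data known, lists by hand from general knowledge. Named were all 10 members (fold changes where the unadjusted p was under 0.05; Ptprf without a test; intervals and the non-overlapping Ptprj were added after the values were seen), the smallest unadjusted p under 0.05 of each other list in each of the 4 comparisons, the 5 genes most like Ptprf, and Gfra2. For marker lists these p-values stand in the closing section. Other genes are named after their values were seen: the neighbours of Ptprf and genes read in 1 group or in single libraries. Results of a few genes under these rules are not reported here. Alternatives covered tool, size factors, filter, thinning to the smallest library, FDR, all groups in one fit, cut-offs on reads and spike-in share, and leaving out each library.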

Additional observations from a re-analysis of the deposited data

Results flagged for a closer look

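In 28 sets of 4 libraries (a member in a group, on the log2(CPM + 1) scale) 4 had a lowest or highest library far from the rest by Dixon's ratio, the gap to the nearest library over the whole range; chance gives about 1 in 20. Ptprf in Gfra2-/- endosteal HSCs had a ratio of 1.0, since library B had its 1 read and the others 0. Any such set gives 1.0, and Ptprf was chosen by these counts. This flag is thus no sign of an outlier and should not be counted against the 1 in 20. Ptpre was low in Gfra2-/- endosteal library D (ratio 0.856; 247 CPM against 311 to 323). Ptpn6 was high in WT endosteal library B (0.831; 238 CPM against 105 to 120.4), the library through which the groups overlap between genotypes. Ptpn11 was low in WT central library C (0.846; 41.6 CPM against 82.4 to 93.2), which had the fewest reads on genes (826487).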

How the results depend on the processing

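No paired analysis was possible because the columns carry no replicate numbers. The count of members passing the FDR stayed at 0 in the 5 comparisons under every alternative run, leaving out each library included (0 to 0), but for DESeq2 without a filter on low counts, an alternative added after the data were seen: 1 member, Ptprk, then passed between endosteal and central WT HSCs (log2 fold change −7.32, SE 2.56, DESeq2 adjusted p = 0.097; 0 reads in every endosteal library), where 4.52% of 13421 genes did. Restricting Gfra2-/- endosteal libraries to A and C, also added later, left 0 members. The mean log2(CPM + 1) of Ptprf was 4.78 higher in Gfra2-/- central than in Gfra2-/- endosteal libraries. This difference was 5.75 with spike-in size factors, 7.92 and 2.68 with pseudocounts of 0.1 and 5, and 4.58 to 5.15 without each library. Ptprf was chosen on this contrast, so its direction was set in advance and these values are a description only. Spike-in scaling moved the median over all tested genes, on the log2 scale, to 1.58, −0.46, −0.28 and 1.75 in the 4 comparisons, against 0.03. The log2 fold change of Ptpn6 between genotypes in endosteal HSCs ran from 0.63 (spike-in share above 0.5%) to 1.37 and lost its unadjusted p under 0.05 without WT endosteal library A, C or D or Gfra2-/- endosteal library D, without libraries B and D together, with spike-in size factors (1.25) and with a spike-in share above 0.5%. That of Ptprk in the interaction ran from 8.18 to 11.76 where it could be fitted. The shallow WT central libraries limit what can be said of low genes there.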

Other observations

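Marker lists passed the FDR of edgeR in 0 of the comparisons, and unadjusted p-values under 0.05 included these. Between endosteal and central WT HSCs, Gp1ba of platelets was higher (log2 fold change 3.29, adjusted p = 0.481, edgeR) and Kdr lower (−4.20, adjusted p = 0.584, edgeR). Between endosteal and central HSCs labelled Gfra2-/-, Mllt3 (−0.99, adjusted p = 0.805, edgeR), Pdgfrb and Kdr (−11.74, adjusted p = 0.805, edgeR) were lower, and Klf1 of erythroid cells (6.95, adjusted p = 0.896, edgeR) and Col1a1 (9.44, adjusted p = 0.896, edgeR) higher. Klf1 had 130, 562, 11 and 28 reads against 3, 0 and 0, and Col1a1 274, 19, 67 and 3 against 0 in each central library. Against a group with 0 reads, as for Col1a1 and Kdr, the fitted size depends on the prior count and is no bound. Between genotypes in endosteal HSCs, Hbb-bs (5.31, adjusted p = 0.737, edgeR) and Col1a1 (4.60, adjusted p = 0.737, edgeR) were higher and Prtn3 lower (−1.14, adjusted p = 0.737, edgeR) in libraries labelled Gfra2-/-. Hbb-bs had 4.13, 2.27, 0.231 and 329 CPM there and 0.909 to 3.06 CPM in WT, and without libraries B and D its log2 fold change was 0.04 and that of Prtn3 −1.02, neither under an unadjusted p of 0.05. In central HSCs, Pf4 of platelets was higher in those libraries (4.23, adjusted p = 0.318, edgeR), as was Mllt3 (0.78, adjusted p = 0.555, edgeR). DESeq2 passed Mllt3, Pdgfrb, Kdr, Klf1 and Col1a1 between endosteal and central HSCs labelled Gfra2-/- and Pf4 between genotypes in central HSCs.

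Single endosteal libraries labelled Gfra2-/- carried reads of other lineages: D had 329 CPM of Hbb-bs, a globin, and B had 118 CPM of Car1, an erythroid enzyme. These 2 libraries had 0 and 1 read of Ptprf.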
